A study of Mus musculus with 2 samples.

Results

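The S100 genes described here are the 9 members S100a4, S100a6, S100a8, S100a9, S100a10, S100a11, S100a13, S100a14 and S100a16. They were chosen by name, with earlier results of these data known. All 9 were features of both count matrices, which held 31054 features for the normal library and 32285 for the wounded library. Each member was followed across the deposited cluster names, 4 in the normal and 6 in the wounded library, and in the cells that passed the stated filters but carried no such name.

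S100 proteins are small calcium-binding proteins with a pair of EF-hands that mostly act as dimers. They change shape on binding calcium and then attach to partners such as annexins, cytoskeletal motors or cell-surface receptors. Most of the family lies beside the epidermal differentiation complex, and several members are abundant in stratified epithelia, where they take part in membrane organisation, cornification and the response to injury.

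The study profiled single cells of the mouse anorectal region, where the stratified anal canal meets the glandular rectum at the transition zone (TZ). Both libraries came from K17CreERT2;R26RGFP mice on the C57/BL6J background. In these mice, tamoxifen, injected on 2 days, let a Cre driven by the keratin 17 promoter switch on a fluorescent reporter, so the normal library carries the transgenes and the tamoxifen as well. Each library was 1 pool of at least 5 mice. The wounded mice, 2 to 4 months old, were collected 1 week after hot EDTA and a brush had stripped the rectal side next to the TZ. An age of 6 to 8 weeks is also given for mice of both conditions in general, tied to neither library. Before capture, cells were sorted for the epithelial surface protein EpCam and against CD45, CD11b, CD31, PDGFRa and dead cells.

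The named cells numbered 939 in the normal library (432 Anal Canal, 257 Basal, 187 Suprabasal and 63 Rectum). In the wounded library they numbered 4147 (573 Basal, 1032 Suprabasal, 991 Regeneration, 838 Wound_Stress, 397 Rectum and 316 Hybrid). A further 610 and 1078 cells passed the filters without a name and are called left-out cells. Median depth lay between 8437.5 and 11543 UMIs (unique molecular identifiers, each standing for 1 captured transcript) in the named normal clusters and between 8532 and 12616 UMIs in the wounded ones, apart from Hybrid at 2390. The libraries shared 1 barcode in all and 0 among the named cells. A level below is the UMIs of a gene summed over a group of cells for every 1000000 of their summed UMIs (CPM), with its exact Poisson 95% interval in brackets. Intervals cover counting error only. Each condition was 1 library, so differences between conditions were not checked against replicates, cells were not used as replicates, and p-values were not computed.

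The cluster names were checked against marker genes. The wounded cluster named Basal carried the suprabasal and mucosal keratins Krt1 (2473 CPM), Krt10 (1987 CPM), Krt13 (1443 CPM) and Krt4 (756 CPM). Their levels in normal Anal Canal were 2286, 2228, 812 and 864 CPM, while normal Basal had 17.4 CPM of Krt1 and 48.4 CPM of Krt10. The 6 stratified basal markers summed to 12970 CPM in wounded Basal, the highest of the wounded clusters, 10756 CPM in normal Basal and 18758 CPM in normal Anal Canal. For the 7 stratified suprabasal markers these sums were 8567, 556 and 10232 CPM. The 2 clusters called Basal therefore both carry basal markers but differ in the suprabasal ones. Values for wounded Basal are given beside normal Anal Canal as well as normal Basal. In the Suprabasal clusters the single gene Cst6 took 87278 CPM in the normal and 53234 CPM in the wounded library. Hybrid cells were shallow and carried enteroendocrine genes such as Chga (635 CPM). The 8 enteroendocrine markers together summed to 21086 CPM in Hybrid and to at most 1140 CPM in any other named cluster. Stratified basal markers summed to 3222 CPM and rectum markers to 1395 CPM in Hybrid.

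All 9 members lie on chromosome 3 within 3050209 bases, and all are annotated as protein coding (GENCODE M21, GRCm38). S100a13 (ENSMUSG00000042312, 90514435 to 90524581), S100a14 (ENSMUSG00000042306, 90526856 to 90528837) and S100a16 (ENSMUSG00000074457, 90537254 to 90543151) are neighbours on the plus strand. S100a4 (ENSMUSG00000001020, 90603771 to 90606045) and S100a6 (ENSMUSG00000001025, 90612882 to 90624181) follow on the same strand. S100a8 (ENSMUSG00000056054, 90668978 to 90670035, plus strand) and S100a9 (ENSMUSG00000056071, 90692632 to 90695721, minus strand) lie 22596 bases apart. S100a11 (ENSMUSG00000027907, 93520488 to 93526287) and S100a10 (ENSMUSG00000041959, 93555080 to 93564643) stand apart from the rest, both on the plus strand. S100a9 is the only member on the minus strand. S100a4 shares exons on its own strand with Gm42674, which had 0 UMIs in the normal library and was no feature of the wounded one, and no other member overlaps a gene.

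The RefSeq table for GRCm38.p6 holds promoters of 7 of the 9 members, and S100a10 and S100a14 have no entry in it. The 120 bases before the start are printed for 2 pairs of members, S100a4 with S100a11, whose levels went most closely together over the clusters, and S100a8 with S100a9, whose proteins form a complex. Each is written 5′ to 3′ on the strand of its gene, with matches to the TATA box TATAAA, the AP-1 motif TGANTCA or the GC box GGGCGG in capitals. The windows are chr3:90603650-90603769 for S100a4, chr3:93520376-93520495 for S100a11, chr3:90668951-90669070 for S100a8 and chr3:90695722-90695841 for S100a9. Starts here and in the motif positions below are those of RefSeq, which can differ from GENCODE. GENCODE starts S100a8 at 90668978 and S100a11 at 93520488, inside these windows. Most of the S100a8 window and the last bases of the S100a11 window thus lie within the GENCODE genes.
S100a4: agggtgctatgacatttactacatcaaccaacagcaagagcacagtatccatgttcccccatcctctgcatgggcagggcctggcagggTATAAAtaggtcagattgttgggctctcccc
S100a11: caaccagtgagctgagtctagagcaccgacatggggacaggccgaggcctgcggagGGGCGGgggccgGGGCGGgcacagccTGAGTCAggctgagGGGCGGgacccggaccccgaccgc
S100a8: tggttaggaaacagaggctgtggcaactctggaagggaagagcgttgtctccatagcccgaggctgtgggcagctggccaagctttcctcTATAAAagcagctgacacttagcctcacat
S100a9: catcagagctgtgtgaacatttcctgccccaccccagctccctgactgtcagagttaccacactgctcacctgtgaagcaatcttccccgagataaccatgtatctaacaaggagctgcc

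The S100a4 window holds TATAAA 31 to 26 bases before the start, and the S100a8 window holds it 30 to 25 bases before the start. Over all 32851 promoters of the table, 6.34% hold this motif within 120 bases on either strand. The S100a11 window has no TATAAA but holds TGAGTCA 38 to 32 bases before the start, together with 3 copies of the GC box. The pattern TGANTCA is found in 3.41% of all promoters and GGGCGG in 26.5%. The S100a11 window has a GC content of 74.2% against a median of 54.2% over all promoters. The S100a9 window holds none of these motifs, nor the CCAAT box (in 21.3% of all promoters) or the C/EBP-type motif TTGCNNAA (in 4.15%), searched likewise on both strands. Upstream of the window, within 250 bases, S100a9 has TTGCTTAA 236 to 229 and GGGCGG 223 to 218 bases before the start. S100a11 there has a second TGAGTCA at 136 to 130. Within 250 bases, 9.56% of all promoters hold TTGCNNAA, 32.7% GGGCGG and 6.75% TGANTCA. A match is a description of the letters and was not tested as a binding site.

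S100a6, or calcyclin, is a cytoplasmic S100 protein that binds annexins and the ubiquitin-ligase adaptor CACYBP. Normal cells had it at 10767 CPM [10670 to 10865] in Anal Canal, 3029 CPM in Basal, 1203 CPM in Suprabasal and 5890 CPM in Rectum. Wounded cells had it at 5429 CPM in Basal, 1906 CPM in Suprabasal, 1039 CPM in Regeneration, 838 CPM in Wound_Stress, 5021 CPM in Rectum and 1778 CPM in Hybrid. S100a6 was thus high in anal canal, rectum and wounded Basal and lowest in Wound_Stress, and every neighbouring pair of groups in this order differed beyond counting error. In Rectum, 5 cells held 25.7% of the S100a6 UMIs of the normal and 21.6% of the wounded library. A single wounded Rectum cell held 2452 of 20638 UMIs. The close order of the Rectum clusters and wounded Basal may thus rest on few cells. When each cell was thinned to 2000 UMIs, 96.2% of Anal Canal cells, 95.3% of normal Basal cells and 58.5% of normal Suprabasal cells kept a UMI of S100a6. In the wounded clusters this share ran from 62.0% in Wound_Stress to 96.6% in Rectum. The anal gland-like left-out cells of the wounded library set the low end among all groups, with 54.0 CPM.

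S100a10 (p11) holds annexin A2 at the inner face of the plasma membrane. Its levels were 1384 CPM in Anal Canal, 673 CPM in Basal, 243 CPM in Suprabasal and 616 CPM in Rectum of the normal library. Wounded levels of S100a10 were 883 CPM in Basal, 392 CPM in Suprabasal, 597 CPM in Regeneration, 683 CPM in Wound_Stress, 534 CPM in Rectum and 322 CPM in Hybrid. In the order Wound_Stress, normal Basal, normal Rectum and Regeneration, each group could not be told apart from the next by counting error. The ends of this run, Wound_Stress [665 to 702 CPM] and Regeneration [584 to 611 CPM], had intervals that did not overlap. Unlike S100a6 and S100a11, S100a10 in Regeneration and Wound_Stress lay above its wounded Suprabasal level. Thinned shares were 65.3% and 68.3% of cells in Regeneration and Wound_Stress against 51.5% in wounded Suprabasal and 30.1% in normal Suprabasal.

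S100a11 (calgizzarin) binds annexin A1 and becomes crosslinked into the cornified envelope. Normal levels were 3479 CPM in Anal Canal, 896 CPM in Basal, 1261 CPM in Suprabasal and 582 CPM in Rectum. Wounded levels were 2303 CPM in Basal, 916 CPM in Suprabasal, 354 CPM in Regeneration, 395 CPM in Wound_Stress, 494 CPM in Rectum and 682 CPM in Hybrid. Regeneration and Wound_Stress had less S100a11 than Rectum in either library. The thinned shares ran from 48.8% of Wound_Stress cells to 97.0% of Anal Canal cells.

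S100a4 (metastasin) binds non-muscle myosin and is abundant in mesenchymal and some immune cells. It reached 565 CPM [543 to 588] in Anal Canal and 148 CPM [138 to 158] in wounded Basal. Normal Basal (32.2 CPM) and Suprabasal (33.3 CPM) had levels that overlapped within counting error, but 64 of the 76 UMIs of Suprabasal were in 5 cells. A UMI of S100a4 was in 18.7% of normal Basal and 8.02% of normal Suprabasal cells, and without the 5 richest cells of each cluster the log2 ratio of Suprabasal to Basal was −1.91. Every other named cluster lay between 2.68 CPM (Wound_Stress) and 12.8 CPM (wounded Suprabasal). After thinning, 39.5% of Anal Canal cells and 15.2% of wounded Basal cells had a UMI of S100a4. In Rectum, a glandular epithelium not known for this gene, the thinned shares were 3.33% (2 of 60 cells, median depth 10885 UMIs) and 2.26% (8 of 354 cells, median depth 9991 UMIs). The Anal Canal and wounded Basal clusters had median depths of 8437.5 and 9075 UMIs. All these medians are from before thinning. The thinned shares were taken at equal depth, so the medians do not bear on these shares. The shares of Regeneration (0.811%), Wound_Stress (0.611%) and Hybrid (1.09%) were at or below those of Rectum, and wounded Suprabasal (2.45%) was close to them. Whether such low shares are background was not tested, and in wounded Rectum 13 of the 28 UMIs were in 1 cell.

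S100a14 and S100a16 are mainly epithelial members, and S100a16 binds calcium through one of its EF-hands. Both varied less over the stratified clusters than the members above. S100a14 was at 966 CPM in Anal Canal, 672 CPM in Basal, 773 CPM in Suprabasal and 260 CPM in Rectum of the normal library. Wounded levels were 765, 833, 538, 521, 248 and 524 CPM in Basal, Suprabasal, Regeneration, Wound_Stress, Rectum and Hybrid. S100a14 was lowest in Rectum in both libraries, and those 2 levels did not differ beyond counting error. S100a16 was at 793, 539, 741 and 413 CPM in normal Anal Canal, Basal, Suprabasal and Rectum. The wounded clusters had S100a16 at 697 CPM in Basal, 731 CPM in Suprabasal, 363 CPM in Regeneration, 353 CPM in Wound_Stress, 388 CPM in Rectum and 505 CPM in Hybrid. Its lowest levels were thus in Regeneration and Wound_Stress, which did not differ from each other beyond counting error.

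S100a13 assists the unconventional release of FGF1 and interleukin 1 alpha. It was at 93.8 CPM in Anal Canal, 44.0 CPM in Basal, 4.82 CPM [2.41 to 8.62] in Suprabasal and 102 CPM in Rectum of the normal library. Wounded levels were 101 CPM in Basal, 28.7 CPM in Suprabasal, 46.3 CPM in Regeneration, 49.3 CPM in Wound_Stress, 127 CPM in Rectum and 106 CPM in Hybrid. Rectum led for this member alone of the 9, yet its level could not be separated by counting error from that of the next group in the order. Normal Suprabasal was the lowest, with 11 UMIs in 7 of 187 cells.

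S100a8 and S100a9 (calgranulins A and B) pair as calprotectin, which binds zinc and calcium, fills neutrophils and is induced in stressed keratinocytes. S100a8 was at 75.3 CPM [67.4 to 83.9] in Anal Canal, 12.6 CPM in Basal, 0.438 CPM in Suprabasal (1 UMI) and had 0 UMIs in the 63 Rectum cells, which allows up to 5.24 CPM. S100a8 in the wounded library was at 23.3 CPM in Basal, 4.15 CPM in Suprabasal, 5.31 CPM in Regeneration, 9.11 CPM in Wound_Stress, 1.70 CPM in Rectum and 5.39 CPM in Hybrid. S100a9 was at 38.6 CPM [33.0 to 44.8] in Anal Canal and 43.4 CPM [38.2 to 49.1] in wounded Basal. These 2 levels of S100a9 did not differ beyond counting error. In the other named clusters S100a9 was at or below 5.18 CPM, with 1 UMI each in normal Basal and normal Suprabasal, and 0 in normal Rectum.

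**Figure D1:**
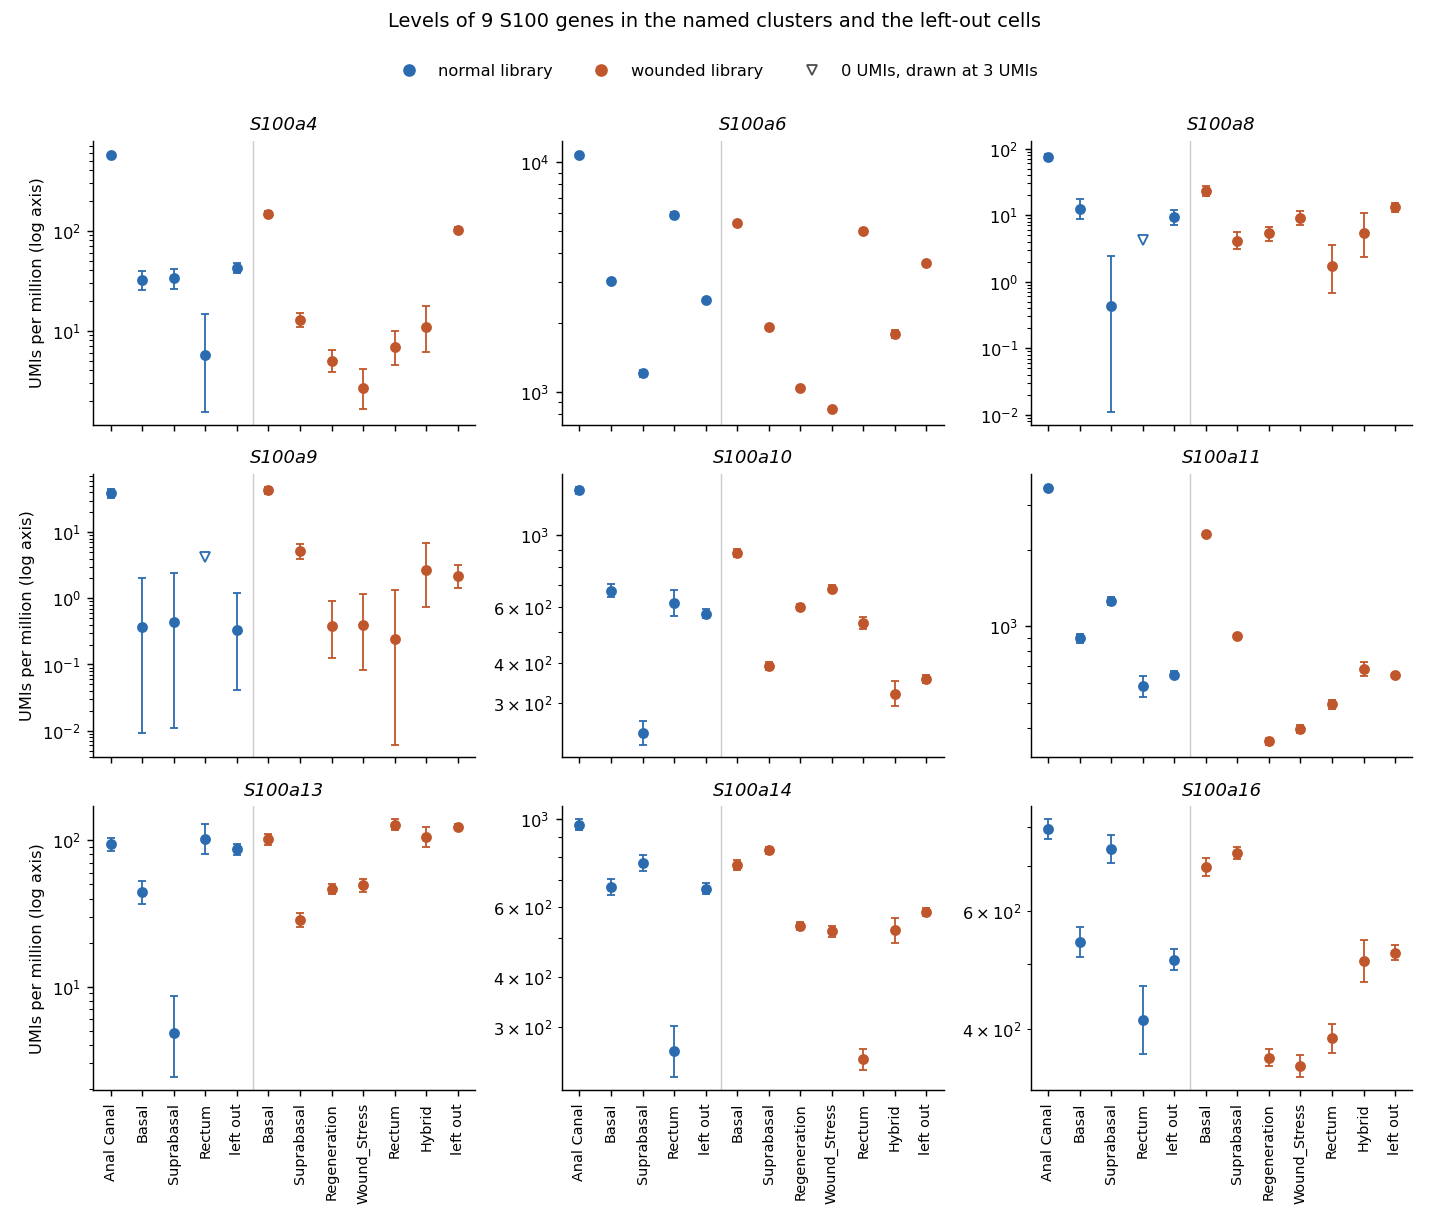
Levels of the 9 S100 members in each named cluster and in the left-out cells of the normal and wounded libraries, as CPM on a log axis with exact Poisson 95% intervals that cover counting error only. Anal Canal has the highest point for 7 of the members. The exceptions are S100a9, where wounded Basal (43.4 CPM) and Anal Canal (38.6 CPM) overlap, and S100a13, led by wounded Rectum (127 CPM).

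Few cells carried most of the calgranulin UMIs. Of the 365 UMIs of S100a8 in named normal cells, 41 cells held all, and in Anal Canal 77.6% of the 330 UMIs were in 5 cells, with 97 UMIs in 1 of them. The 171 UMIs of S100a9 in named normal cells were in 26 cells, 24 of them in Anal Canal. In the wounded library 334 UMIs of S100a8 were spread over 137 cells and 322 UMIs of S100a9 over 51 cells, 36 of them in Basal. One cell of wounded Suprabasal held 56 of that cluster's 60 S100a9 UMIs.

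The overlap of the calgranulins within cells differed in count between clusters. In Anal Canal, 15 cells had both genes, 10 had S100a8 alone and 9 had S100a9 alone. In normal Basal all 15 cells with S100a8 lacked S100a9, and in Regeneration and in Wound_Stress 39 of 40 cells with S100a8 lacked it. Of the cells with S100a8, 28 of the 40 in Regeneration and 31 of the 40 in Wound_Stress had a single UMI of it, where S100a9 could easily be missed. In wounded Basal 11 cells had both genes, 19 had S100a8 alone and 25 had S100a9 alone, and in wounded Suprabasal 15 of 18 cells with S100a8 lacked S100a9. The raw shares of cells with S100a8 were 4.04% in Regeneration (median depth 12616 UMIs) and 4.77% in Wound_Stress (8532 UMIs), against 0.756% in Rectum (9991 UMIs), taken as the type that should lack the gene. At 2000 UMIs a cell these shares became 0.609% (6 of 986 cells), 1.34% and 0.565% (2 of 354 Rectum cells). These thinned counts were too few to separate Regeneration from Rectum. In summed levels S100a8 was at 5.31 CPM [4.13 to 6.72] in Regeneration and 1.70 CPM [0.685 to 3.51] in wounded Rectum. Of the 7 UMIs in Rectum, 5 were in 1 cell. For S100a9 the thinned share was 2.77% in Anal Canal and 3.55% in wounded Basal, and 0 of 354 wounded Rectum cells had a UMI.

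**Figure D2:**
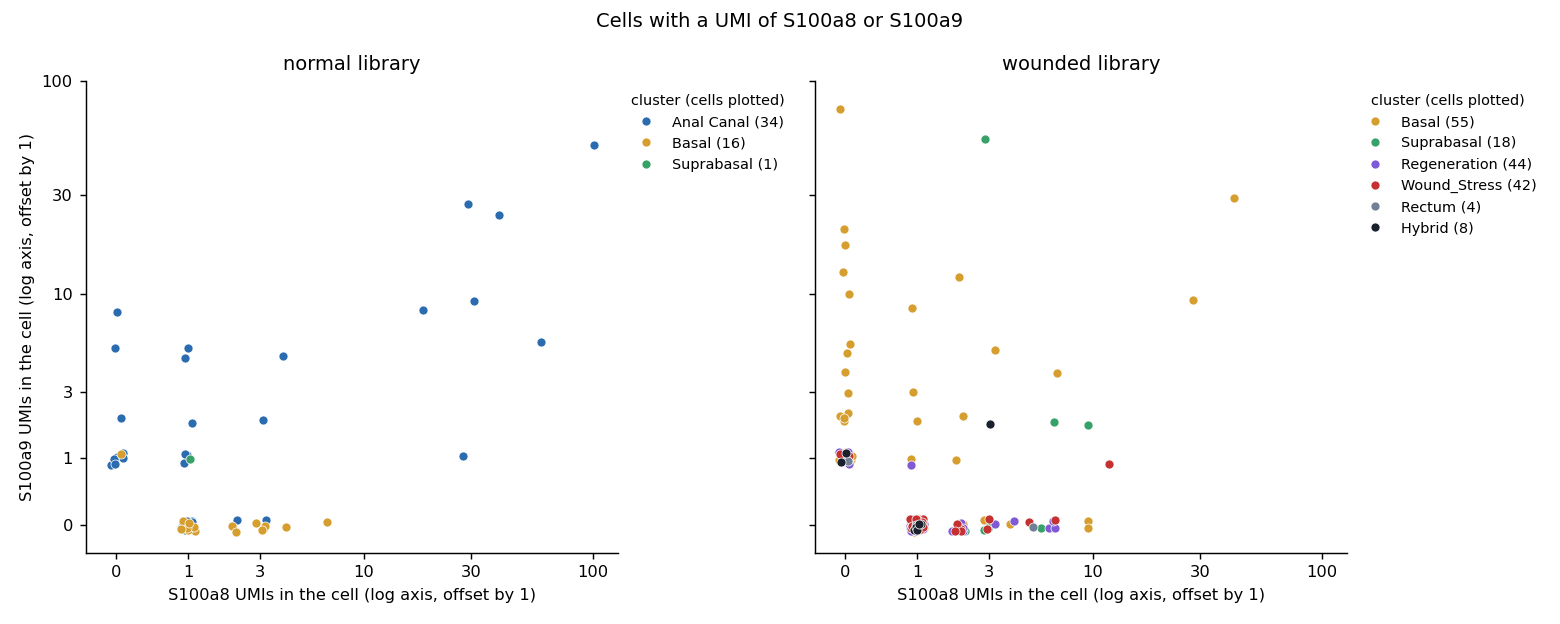
UMIs of S100a8 (x axis) and S100a9 (y axis) in every named cell with a UMI of either gene, on log axes offset by 1, with points moved slightly at random for visibility and coloured by cluster. In the normal library the cells rich in both genes are Anal Canal cells, while in the wounded library Basal cells line the left edge with S100a9 alone and Regeneration and Wound_Stress cells lie along the bottom with S100a8 alone.

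The cells rich in S100a9 were compared with the rest of their cluster, as a description of cells picked by that gene. Among normal cells 11 had at least 5 UMIs of S100a9, all of them Anal Canal. They carried 10762 CPM of Krt1 and 10951 CPM of Krt10, against 2000 and 1934 CPM in the other Anal Canal cells, and 83.9 CPM of the basal keratin Krt15 against 2574 CPM. S100a6 was lower in them (3210 against 11022 CPM), as was S100a4 (83.9 against 581 CPM). Among wounded cells 13 had at least 5 UMIs of S100a9, 12 of them Basal. These carried 9348 CPM of Krt13 and 4938 CPM of Krt4, against 1169 and 612 CPM in the other Basal cells, and 507 CPM of Krt5 against 2837 CPM. The wounded S100a9-rich cells also had more Krt1 (6396 against 2331 CPM) and Krt10 (7394 against 1796 CPM) and less Krt15 (89.8 against 1294 CPM), and the normal ones had less Krt5 (1608 against 3904 CPM). Krt1 and Krt10 were thus higher, and Krt5 and Krt15 lower, in the S100a9-rich cells of both libraries than in the rest of the cluster. For Krt13 (965 against 807 CPM, from 2 of the 11 cells) and Krt4 (776 against 867 CPM) the normal S100a9-rich cells were close to the other Anal Canal cells.

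The neutrophil genes Csf3r, Cxcr2, Retnlg, Ly6g, Camp, Ngp and Mmp8 were at 0 UMIs in the S100a9-rich cells of either library, as were Il1b and Lyz2. Ltf, also on the neutrophil list, had 1 UMI in those of the normal library and 5 UMIs in those of the wounded. The pan-leukocyte gene Ptprc had 1 UMI in those of the normal library and 0 in those of the wounded. Over whole clusters, the 8 neutrophil marker genes summed to 181 CPM in Anal Canal, with a UMI of 3 of the 8, and to 478 CPM in wounded Basal, with a UMI of 5. Nearly all of it was Ltf (181 and 474 CPM), whose cell source was not tested, and Csf3r of the same list was at 1 UMI and 0 UMIs. Rectum summed to 149 CPM in the normal and 81.7 CPM in the wounded library, mostly Ly6g (145 and 74.4 CPM), and the other clusters to between 0.876 and 8.77 CPM. The 7 lymphocyte genes summed to at most 11.5 CPM in any named cluster.

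The wounded cells rich in S100a8 came from 5 clusters. In that library 15 cells had at least 5 UMIs of S100a8, of which 5 were Basal, 3 Suprabasal, 3 Regeneration, 3 Wound_Stress and 1 Rectum. They carried 1057 CPM of the antimicrobial gene Lcn2, against 897 CPM in all other named wounded cells, and 558 CPM of the sebaceous lipid enzyme Scd1 against 355 CPM. The glandular keratin Krt8 was at 985 CPM against 298 CPM, but its UMIs came from 3 of the 15 cells. Larger differences were in Krt1 (4003 against 365 CPM) and Krt10 (3348 against 306 CPM), with UMIs in 5 and 4 of the 15 cells. Krt15 (203 against 726 CPM) and Krt17 (448 against 2327 CPM) were lower. Of the neutrophil genes above without Ltf, Ly6g had 22 UMIs in 2 of these cells (93.0 CPM, against 10.4 CPM in the other named cells), and the other 6 were at 0 UMIs. Ltf had 198 UMIs, all in 1 of these cells (837 CPM, against 60.1 CPM in the other named cells). Among normal cells 7 of the 8 rich in S100a8 were Anal Canal cells. The 8 cells carried 9582 CPM of Krt1 and 6975 CPM of Krt10, against 2074 and 2088 CPM in the other Anal Canal cells. Krt15 was lower in them (704 against 2552 CPM). The 8 cells had 319 CPM of Lcn2 against 10.1 CPM in the other Anal Canal cells. All other named normal cells together had 351 CPM of Lcn2, so against these the 8 cells were not higher.

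The first comparison asked how the S100 genes differ between the anal canal and the TZ of normal tissue. Between Anal Canal and the Basal and Suprabasal clusters together, 7 of the 9 members were past 2-fold higher and 0 lower, where over all 9155 genes with at least 50 UMIs 7.19% were past 2-fold higher and 8.09% lower, 15.3% in all. The median log2 ratio of the members was 1.85, against 0.12 over all genes. S100a4 was at 565 against 32.7 CPM (log2 ratio 4.11 [3.88 to 4.35], 17.3-fold). S100a6 followed with 4.91-fold (2.30 [2.27 to 2.33]), and S100a13 (1.85), S100a11 (1.71) and S100a10 (1.54) were closer to each other. S100a8 was 10.7-fold higher (3.42 [2.92 to 3.97]) and S100a9 stood at 38.6 against 0.401 CPM, the latter from 2 UMIs (6.59 [4.71 to 9.65]). S100a14 (0.43) and S100a16 (0.33) stayed within 2-fold, with intervals above 0. The names were given from these same cells and genes, so the differences between clusters are descriptions.

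**Figure D3:**
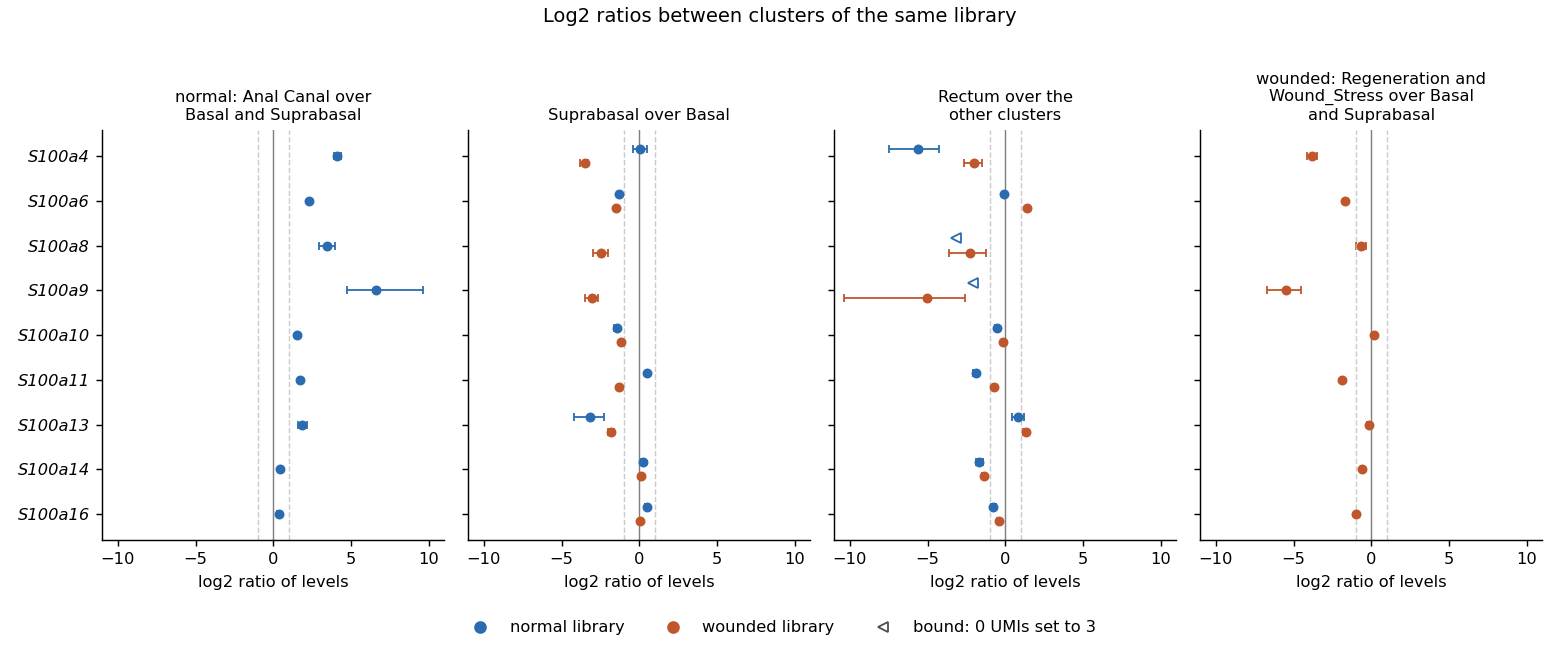
Log2 ratios of levels between clusters of the same library for the 9 members (x axis, log2 ratio), in blue for the normal and in red for the wounded library, with exact binomial 95% intervals that cover counting error only. Dashed lines mark 2-fold, hollow triangles are bounds for 0 UMIs set to 3, and ratios with under 50 UMIs are not drawn. All 9 points of the Anal Canal panel lie right of 0, 7 of them past 2-fold, and S100a11 lies on opposite sides of 0 in the Suprabasal panel.

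Suprabasal was set against Basal in each library. In normal tissue 0 of 7 members with enough UMIs were past 2-fold higher and 3 lower (5.81% and 13.8%, 19.6% in all, over 7122 genes, whose median log2 ratio was −0.26). The lower ones were S100a13 (−3.19 [−4.23 to −2.30]), S100a10 (−1.47) and S100a6 (−1.33), while S100a4 was level in the pooled sum (0.05, but −1.91 without the 5 richest cells of each cluster) and S100a11 was higher in Suprabasal within 2-fold (0.49 [0.41 to 0.57]). S100a8 had 35 UMIs and S100a9 2 UMIs in both clusters together, too few to be counted. In wounded tissue 0 of 9 members were past 2-fold higher and 7 lower (8.52% and 9.19%, 17.7% in all, over 10633 genes, median −0.14). The largest differences were in S100a4 (12.8 against 148 CPM, −3.53), S100a9 (−3.06), S100a8 (−2.49) and S100a13 (−1.82). S100a11 was also lower, by −1.33 [−1.37 to −1.29], opposite to its direction in normal tissue. S100a14 (0.12) and S100a16 (0.07) were level between the wounded clusters to within 0.2 on the log2 scale. Wounded Basal carries the keratins given above, and their part in these ratios was not tested.

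Rectum was compared with all the other clusters of its library. In the normal library 0 of 9 members were past 2-fold higher in Rectum and 5 lower (14.8% and 16.1%, 30.9% in all, over 9542 genes). S100a4 was 49.6-fold lower (4 UMIs, −5.63 [−7.51 to −4.27]), S100a11 3.77-fold lower (−1.91) and S100a14 3.21-fold lower (−1.68). Anal Canal held 2475 of the 2638 UMIs of S100a4 and 15242 of the 20544 UMIs of S100a11 in the other clusters. Basal and Suprabasal together had 32.7 CPM of S100a4, 1063 CPM of S100a11 and 718 CPM of S100a14. Rectum had 5.68, 582 and 260 CPM, so S100a11 was within 2-fold of Basal and Suprabasal. Those clusters held 35 UMIs of S100a8 and 2 UMIs of S100a9, too few for a ratio. S100a8 and S100a9 had 0 UMIs in Rectum and were at least 9.15-fold and at least 4.28-fold lower against a floor of 3 UMIs, but without the 5 cells richest in S100a9 on each side its bound was a log2 ratio of only −0.24. In thinned cells the bound for S100a8 was also within 2-fold, at −0.81. For the wounded library 2 of 9 were past 2-fold higher and 4 lower (16% and 15.9%, 31.9% in all, over 12651 genes). S100a6 was higher (5021 against 1926 CPM, 1.38 [1.36 to 1.40]), as was S100a13 (1.29 [1.15 to 1.43]). S100a4 (−2.03), S100a8 (−2.29), S100a9 (−5.07) and S100a14 (−1.40) were lower. Without the Hybrid cells the wounded counts were the same, against 16.4% and 15.6% of genes, 32% in all. S100a6, at 1.38 in the wounded library, was at −0.07 in the normal one. In the normal library Anal Canal, with 10767 CPM of S100a6, is one of the other clusters, and no wounded cluster has that name.

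The Regeneration and Wound_Stress clusters exist in the wounded library only, and they were compared there with Basal and Suprabasal together. Anal gland markers summed to 2173 CPM in Regeneration and 989 CPM in Wound_Stress, against 106 CPM in wounded Basal and 311 CPM in wounded Suprabasal. The wounded left-out cells, which include anal gland-like cells, had 3013 CPM of these markers. The part of such gland expression in the ratios below was not tested. Of the 9 members 0 were past 2-fold higher and 5 lower (7.66% and 11.1%, 18.7% in all, over 12003 genes, median 0.03). S100a9 was at 0.39 CPM against 17.8 CPM (−5.51 [−6.74 to −4.52]) and S100a4 13.8-fold lower (−3.79 [−4.13 to −3.47]). S100a11 was 3.73-fold lower (−1.90) and S100a6 3.18-fold lower (−1.67). S100a16 lay at the threshold (359 against 719 CPM, [−1.04 to −0.96]) and was within 2-fold under several other settings. S100a10 was slightly higher (0.18 [0.14 to 0.22]) and S100a13 nearly level (−0.15 [−0.29 to −0.02]). Within 2-fold were also S100a8 (−0.65) and S100a14 (−0.61). These ratios are to the pooled sum, and for both S100a10 and S100a13 the levels in Regeneration and Wound_Stress given above lay between the wounded Suprabasal and Basal levels (392 and 883 CPM of S100a10, 28.7 and 101 CPM of S100a13).

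The wound itself was addressed by setting clusters of the same name in the 2 libraries side by side. For Basal, 4 of 9 members were past 2-fold higher in the wounded library and 0 lower (13.9% and 12.1%, 25.9% in all, over 9119 genes), and all 9 ratios were above 0, with a median of 0.89 against −0.02 over all genes. S100a4 was 4.59-fold higher (148 against 32.2 CPM, 2.20 [1.88 to 2.53]), S100a11 2.57-fold (1.36 [1.30 to 1.42]) and S100a13 2.30-fold (101 against 44.0 CPM, 1.20 on the log2 scale). S100a9 had 249 UMIs in wounded and 1 UMI in normal Basal, a log2 ratio of 6.87 [4.38 to 12.18]. S100a8 (0.89), S100a6 (0.84), S100a10 (0.39), S100a16 (0.37) and S100a14 (0.19) were within 2-fold.

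Against normal Anal Canal, whose keratins wounded Basal carried, the picture differed. This comparison was added after the data were seen. Here 0 of 9 members were past 2-fold higher in wounded Basal and 2 lower (8.42% and 6.29%, 14.7% in all, over 9394 genes). S100a4 was at 148 against 565 CPM (−1.94 [−2.05 to −1.82]) and S100a8 at 23.3 against 75.3 CPM (−1.69 [−1.99 to −1.40]). S100a9 (0.17 [−0.12 to 0.46]) and S100a13 (0.11 [−0.08 to 0.30]) had intervals that held 0. S100a11, higher against normal Basal, was lower against Anal Canal (−0.60), and S100a6 (−0.99) was just within 2-fold. For 7 members (S100a4, S100a6, S100a8, S100a10, S100a11, S100a14 and S100a16) the level in wounded Basal lay between those of normal Basal and normal Anal Canal. Which normal cells the wounded Basal cells correspond to cannot be told apart in these data from a change after the wound.

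For Suprabasal, 2 of 8 members with enough UMIs were past 2-fold higher in the wounded library and 1 lower (14.3% and 4.58%, 18.9% in all, over 9771 genes, median 0.12). S100a13 was higher (332 UMIs against 11, 28.7 against 4.82 CPM, 2.57 [1.72 to 3.59]). S100a9 was higher with 60 UMIs against 1 (3.56 [1.03 to 8.89]), of which 56 were in the single cell named above. S100a4 was lower (12.8 against 33.3 CPM, −1.38 [−1.79 to −0.96]), but 64 of its 76 UMIs in normal Suprabasal were in 5 cells, and without the 5 cells richest in it on each side the ratio was 0.70. S100a10 (0.69), S100a6 (0.66), S100a11 (−0.46), S100a14 (0.11) and S100a16 (−0.02) stayed within 2-fold. The share taken by Cst6 differs between these clusters, and its part in the ratios was not tested.

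For Rectum, 0 of 6 members with enough UMIs were past 2-fold in either direction (9.97% and 5.01%, 15% in all, over 7820 genes). Their log2 ratios ran from −0.24 [−0.39 to −0.08] for S100a11 to 0.32 [−0.04 to 0.69] for S100a13, with S100a6 at −0.23, S100a10 at −0.21, S100a16 at −0.09 and S100a14 at −0.07. S100a4 had 28 UMIs in the wounded and 4 in the normal Rectum, S100a8 7 and 0, and S100a9 1 and 0, which gives no ratio. These 6 ratios were small, but with 15% of all genes past 2-fold, 0 of 6 does not set the members apart from other genes.

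The left-out cells were clustered on their own in each library, with the S100 family kept out of the variable genes, and clusters were named by marker lists under a rule set after they had been seen. In the normal library 610 such cells formed 6 clusters, and in the wounded library 1078 cells formed 8. Fibroblast-like cells were present in both despite the sort for EpCam. Of the 9 members 0 were past 2-fold higher and 5 lower in the left-out than in the named normal cells (10.8% and 8.76%, 19.5% in all, over 10915 genes, median 0.13). In the wounded library 2 were higher and 1 lower (12.1% and 9.93%, 22% in all, over 13512 genes, median 0.12), namely S100a4 (1.99), S100a13 (1.06) and S100a9 (−1.76).

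The highest left-out levels of S100a4 were in some, but not all, of the mesenchymal and vascular clusters of the wounded library. It reached 737 CPM in a fibroblast-like cluster of 45 cells, with a UMI in 82.2% of them. An endothelial-like cluster of 109 cells had 459 CPM and also had Actc1, C1qa, C1qb and Lyz2 among its leading genes. At the finer resolution of 0.4 the endothelial-like cluster had 75 cells, and Actc1 led a smooth muscle or pericyte-like cluster of 34 cells. The levels given for the 109 cells may thus mix cell types. A smooth muscle or pericyte-like cluster of 70 cells had 437 CPM. The fibroblast-like cells of the normal library had 168 CPM, and the anal gland-like cells 1.75 CPM in the normal and 0.273 CPM in the wounded library. The larger wounded fibroblast-like cluster of 135 cells had 102 CPM (a UMI in 28.9% of cells), below a hair follicle-like cluster of 153 cells (190 CPM). An unnamed normal cluster of 71 cells had 164 CPM, a level close to that of the normal fibroblast-like cells. Its leading genes included Nppc, Scrg1, Krt42, Lgr5 and Tbx1, as did those of the hair follicle-like cluster of 153 cells. S100a4 was thus high in some mesenchymal and vascular clusters, though not in these alone, and near 0 in anal gland-like cells.

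S100a6 reached 11799 CPM in a hair follicle-like cluster with Krt75 among its leading genes in the wounded library (141 cells) and 8428 CPM in its counterpart with Krt75 in the normal library (101 cells). Fibroblast-like cells had 10088 and 7193 CPM in the wounded library and 5106 CPM in the normal one. The normal fibroblast-like cluster of 108 cells split at a finer clustering resolution of 0.4, with 8612 CPM of S100a6 in 35 fibroblast-like cells and 3869 CPM in 73 smooth muscle or pericyte-like cells. Anal gland-like cells were at the low end, with 54.0 CPM in the wounded and 172 CPM in the normal library. S100a11 was at 1970 CPM in the normal and 1655 CPM in the wounded Krt75 cluster, and at 222 and 293 CPM in anal gland-like cells.

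S100a13 was highest in the fibroblast-like left-out cells, with 437 and 362 CPM in the 2 wounded clusters and 246 CPM in the normal one. After the finer split of the normal cluster, the fibroblast-like cells had 516 CPM of S100a13 and the smooth muscle or pericyte-like cells 151 CPM. S100a14 ran the other way in the wounded library, with 56.2 and 24.3 CPM in the wounded fibroblast-like clusters and 43.3 CPM in the smooth muscle or pericyte-like cluster, against 1209 CPM in the Krt75 cluster and 740 CPM in anal gland-like cells. The normal fibroblast-like cluster had 220 CPM of S100a14, and after the split 3 UMIs in the 35 fibroblast-like cells and 292 CPM in the smooth muscle or pericyte-like cells. S100a16 was likewise low in smooth muscle or pericyte-like cells (59.2 CPM) and high in the Krt75 cluster (1131 CPM) of the wounded library.

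S100a8 was found in the anal gland-like left-out cells, at 26.2 CPM in the normal library and 14.2 CPM in the wounded, and in unnamed clusters. Unnamed normal clusters of 138 and 96 cells had 9.02 CPM (18 UMIs) and 8.21 CPM (7 UMIs). An unnamed wounded cluster of 208 cells, with S100a8 and the gland receptor gene Mc5r among its leading genes, had 33.5 CPM (99 UMIs, a UMI in 15.4% of its cells at a median depth of 13810.5 UMIs). S100a8 had 0 UMIs in the hair follicle-like cells and an unnamed cluster of the normal library and in 3 of the 8 wounded clusters. S100a9 was at or below 4.82 CPM in every left-out cluster.

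**Figure D4:**
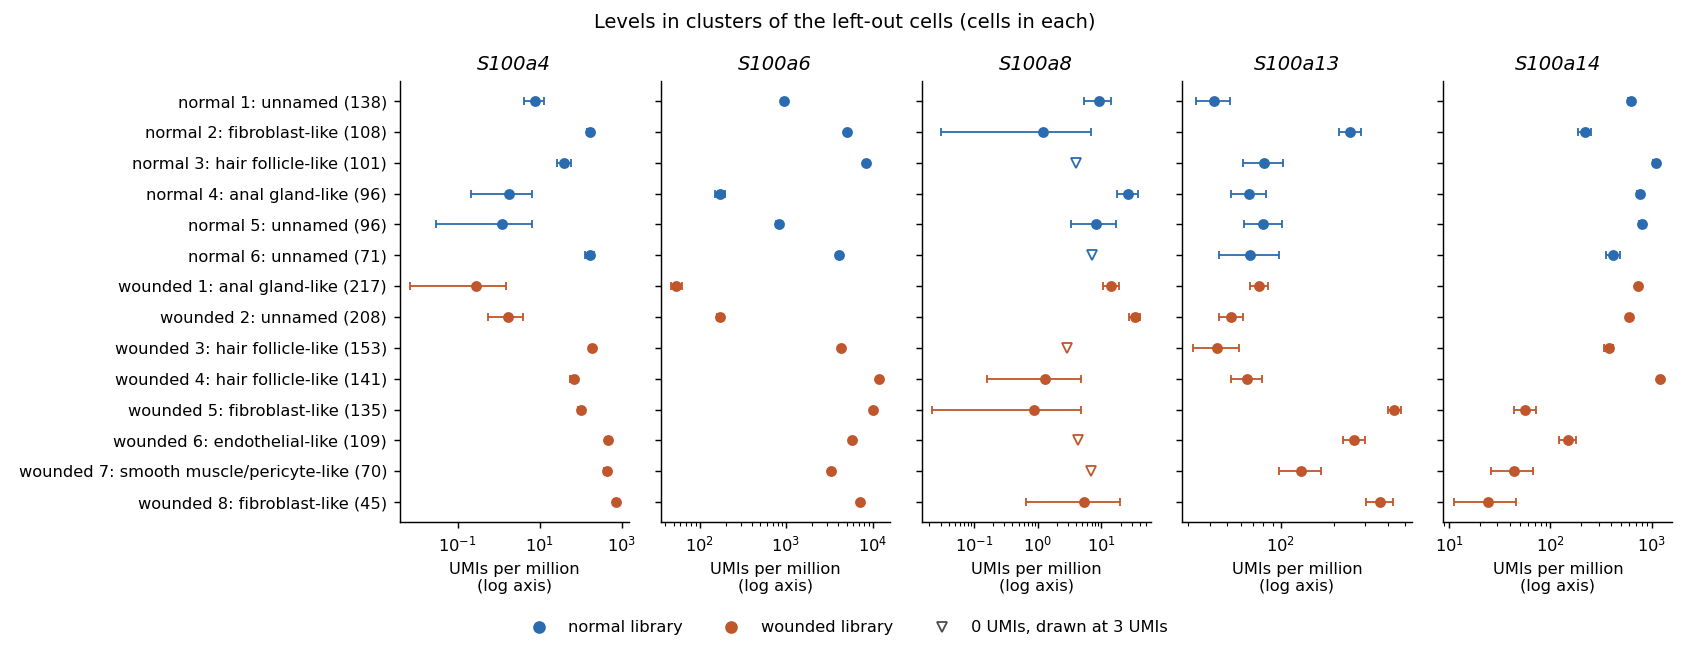
Levels of S100a4, S100a6, S100a8, S100a13 and S100a14 in the clusters of left-out cells, as CPM on log axes with exact Poisson 95% intervals, in blue for the 6 normal and in red for the 8 wounded clusters, with 0 UMIs drawn as hollow triangles at 3 UMIs. The wounded fibroblast-like, endothelial-like and smooth muscle or pericyte-like clusters lie to the right for S100a13 (130 to 437 CPM) and to the left for S100a14 (24.3 to 150 CPM).

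Members were also compared with each other over the 10 named clusters, on log2(CPM + 10), as a description of points that share 2 libraries. S100a4 and S100a11 had the highest Pearson correlation (0.95), followed by S100a11 with S100a16 (0.89) and S100a4 with S100a9 (0.89), and S100a8 with S100a9 stood at 0.83. S100a13 and S100a14 had the lowest, −0.47. Over single cells thinned to 2000 UMIs the Spearman correlation of S100a4 with S100a6 was 0.52 in 895 normal and 0.19 in 3926 wounded cells, and that of S100a6 with S100a10 was 0.50 and 0.26. The calgranulin pair had 0.39 and 0.17, in sparse counts.

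The genes whose levels were most like those of each member over the 10 clusters were taken from 8889 genes. For S100a4 they were Stfa1 (r = 0.98), the actin bundler Fscn1 (0.98) and the annexin Anxa2 (0.97). S100a9 went with Thbd, Krt12 and the airway-type protease gene Tmprss11d (each 0.98). S100a10 went with the integrin subunit gene Itgb4 (0.95), Mpp1 (0.95) and Met (0.93), and S100a11 with Sema3f (0.98), the calpain gene Capn2 (0.97) and Sox15 (0.97). The desmosomal genes Perp (0.98, with S100a14) and Jup (0.97, with S100a16) stood beside those epithelial members, as did the keratin Krt6a (0.98, with S100a16). S100a6 went with Tmbim1 (0.98), Txn1 (0.96) and Polr1d (0.95), S100a8 with Adss (0.97), Aknad1 (0.96) and Gpc3 (0.94), and S100a13 with Cep89, Cops3 (each 0.96) and Dcps (0.95).

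Over the 3926 thinned wounded cells, S100a6 was nearest to the basal keratins Krt5 (Spearman 0.46) and Krt15 (0.38) and to Wfdc2 (0.34). S100a11 was nearest to the stratified differentiation genes Dapl1 (0.39), Ly6d (0.39) and Krtdap (0.37). S100a9 was nearest to Ecm1 (0.18), Krt13 (0.18) and Krt4 (0.17), and the closest gene to S100a10 and to S100a13 was S100a6 (0.26 and 0.18). These cells come from 1 library. For S100a8 the closest gene had 0.07, too weak in sparse counts to be read as a pattern.

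Other genes of the family and its partners were taken from lists. Of 8 other S100 genes, 7 were in the matrices. S100a1, a member best known from muscle, was highest among named clusters in Rectum (320 CPM in the normal, 195 CPM in the wounded library), and S100g, the intestinal calbindin-D9k, was at 48.3 and 63.5 CPM in Rectum and at or below 7.42 CPM in every other named cluster. S100a3, known from hair, had its highest level in Hybrid (107 CPM). The psoriasin relative S100a7a had 41 UMIs in wounded Basal (7.14 CPM) and at most 1 UMI in any other named cluster.

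Among 13 partners and receptors, Anxa2, which binds S100a10, was at 1968 CPM in Anal Canal and 1205 CPM in wounded Basal and between 332 and 676 CPM in the other named clusters. Anxa1, which binds S100a11, was at 2660 CPM in normal Suprabasal and 57.9 CPM in Wound_Stress. The receptors Ager and Tlr4 stayed at or below 5.68 CPM in every named cluster. Between the Basal clusters, 1 of 8 partners with enough UMIs was past 2-fold higher in the wounded library and 1 lower. In Regeneration with Wound_Stress against wounded Basal and Suprabasal, 0 of 9 were higher and 1 lower. The shares of all genes in these comparisons were 13.9% higher and 12.1% lower, and 7.66% and 11.1%. Against normal Anal Canal 0 of 8 partners were past 2-fold in wounded Basal.

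The cornified envelope genes, many of which lie near the S100 genes on chromosome 3, gave 7 higher and 1 lower of 9 in wounded against normal Basal (all genes 13.9% and 12.1%), and 0 higher and 11 lower of 11 in Regeneration and Wound_Stress against Basal and Suprabasal (7.66% and 11.1%). Against normal Anal Canal 1 of 10 was higher and 3 lower in wounded Basal, with a median log2 ratio of −0.34 (8.42% and 6.29% of all genes). Krtdap, a keratinocyte differentiation gene, was at 3141 CPM in wounded Basal against 183 CPM in normal Basal and 3797 CPM in normal Anal Canal, and at 35.4 CPM in Regeneration and 42.6 CPM in Wound_Stress. Of the 7 S100-fused epidermal proteins, whose first part is an S100 domain, 3 had enough UMIs in the Regeneration and Wound_Stress comparison, and all 3 were past 2-fold lower. The most abundant was Tchh, trichohyalin, at 38.9 CPM in wounded Basal, 11.1 CPM in Regeneration and 8.71 CPM in Wound_Stress.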

How the data were processed

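For each library, raw UMI counts of every feature in every barcode were deposited, per the labels made with Cell Ranger 3.1.0 on mm10 (the file header of the wounded library names 4.0.0). A deposited table of the named cells gives values on a natural log scale, each ln of (1 + whole number), whose making is not given in the sources used here, so these tables gave the cell names and an alternative only. Left-out cells passed the stated filters (over 200 and under 5000 genes, under 25% mitochondrial UMIs) and stood in no table. Counts were summed per group (CPM), with exact Poisson, binomial and Clopper-Pearson 95% intervals in Python 3.11.15 and scipy 1.17.1, and ratios were counted from 50 UMIs in both groups together. A group at 0 UMIs was set to 3 UMIs as a bound. Cells were thinned to 2000 UMIs for shares, which left out 44 and 221 named cells. Total depth was 17617944 UMIs (normal) and 88260050 UMIs (wounded), so rare transcripts are the less certain in the small normal clusters. No genes were removed from the totals, and columns of unmapped samples numbered 0.

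Left-out cells were clustered with Seurat 5.3.0 in R 4.3.3 (2000 variable features without S100 genes, cell-cycle scores regressed, 10 principal components, resolution 0.2). A name needed at least 3 detected markers and a mean log2 ratio above 1. Scrublet in scanpy 1.11.5 called 4 and 0 cells, so its calls were not used, and removing the 93 and 314 highest scores was an alternative. No test was made, since each condition had 1 library. The ratio and its intervals were tested on simulated data. The genes named are the 9 members, the 3 genes most like each, and for each list the members with the highest levels. S100a9-rich and S100a8-rich cells, marker keratins and Cst6 were named after their values were seen. The members and lists were chosen with earlier results of these data known. Alternatives were per-cell means, thinning, median-ratio scaling, totals without mitochondrial UMIs, a 10% mitochondrial limit, the Scrublet scores, the deposited whole numbers, and those added later. Promoters and gene positions came from RefSeq GRCm38.p6 and GENCODE M21.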

Additional observations from a re-analysis of the deposited data

Results flagged for a closer look

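These results stood apart by comparing the same contrast in the 2 libraries or by looking at data that no comparison used. In none of the between-library cases was the difference tested, since each library is 1 sample.

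S100a11 was 0.49 on the log2 scale higher in Suprabasal than in Basal of the normal library and 1.33 lower in the wounded one, a difference of −1.82. Wounded Basal carried keratins of the normal Anal Canal cluster, and the part of that was not tested. S100a6 in Rectum over the other clusters differed by 1.46 between the libraries (−0.07 in the normal and 1.38 in the wounded). The other clusters include Anal Canal in the normal library only.

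The contrast of left-out with named cells differed between the libraries by 4.61 on the log2 scale for S100a4 (−2.63 and 1.99), by 2.01 for S100a6 (−1.29 and 0.71) and by 2.73 for S100a8 (−1.95 and 0.77). Fibroblast markers summed to 1049 CPM in the normal and 3706 CPM in the wounded left-out cells, smooth muscle or pericyte markers to 1071 and 2672 CPM and endothelial markers to 104 and 75.8 CPM, and their part in these differences was not tested.

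The 1015 normal and 11991 wounded barcodes that failed the filters and had no cluster name entered no comparison (1 further normal barcode that failed is a named cell and was used). UMIs of the 9 members in them summed to 6014 (normal) and 80420 (wounded). S100a6 made up most of these, at 2446 CPM and 1699 CPM. The median mitochondrial share of these barcodes was 75.3% and 60.0%.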

How the results depend on the processing

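No paired analysis was possible because each condition was 1 library. Of the values that sum up a comparison, 72 stayed within 1.5 times the reported one under the alternatives listed at the start, and 5 did not. In wounded against normal Suprabasal (3 members as reported), thinned cells gave 1 and the deposited whole numbers gave 1. In normal Rectum against the other clusters (5), the per-cell mean and thinned cells gave 3 each, and in the normal left-out cells (5) thinned cells gave 3. Alternatives added after the data were seen gave 1 member for Suprabasal without the 5 cells richest in each gene, and 2 for Basal (4) when wounded Basal was set against normal Anal Canal. Of the single-gene values, 526 stayed within their counting interval (within 1.5 times for shares of genes) and 229 moved past it under the alternatives listed at the start, and 60 stayed, 47 moved and 3 reversed under the added ones. No ratio past 2-fold changed direction under an alternative listed at the start. Under the added ones S100a4 (−1.94) and S100a11 (−0.60) reversed against Anal Canal, and S100a4 in Suprabasal reversed to 0.70 without the 5 richest cells, where its normal Suprabasal to Basal ratio was −1.91. S100a16 in Regeneration and Wound_Stress fell within 2-fold under the per-cell mean (−0.91), thinned cells (−0.91) and the whole numbers (−0.94). S100a4 in Suprabasal was also within 2-fold under the per-cell mean (−0.64), the whole numbers (−0.84) and without the highest Scrublet scores (−0.89). S100a8 in normal Rectum was at −0.81 in thinned cells, S100a6 in normal left-out cells at −0.98 (per-cell mean) and −0.96 (thinned), S100a13 in wounded left-out cells at 0.94 (median-ratio scaling), and S100a8 in Basal passed 2-fold (1.23) in cells under 10% mitochondrial UMIs. At resolution 0.4 the left-out cells gave 7 and 10 clusters in place of 6 and 8. The causes were not tested. Depth limits S100a8 and S100a9 most, with 0 UMIs of either in the 63 normal Rectum cells.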
